A study of Homo sapiens with 8 samples.

Results

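The genes described here encode the antioxidant programme tied to the transcription factor NRF2: NRF2 itself and its regulators, the glutathione and thioredoxin systems, superoxide dismutases and catalase, carbonyl and epoxide enzymes, haem breakdown, iron storage and uptake, and the ABCC efflux pumps. They were chosen by name, 48 in all, with earlier results of these data known. A gene was measured where a probe set of the array carries its symbol and no other. This held for 45 of the 48, among 18417 genes tested. PRDX5, AKR1B1 and FTH1 are not analysed here. GPX1 and AKR1C1 had 2 probe sets each and the rest had 1.

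The cells are BT549, a human triple-negative breast cancer line of mesenchymal character. The 4 attached cultures grew on ordinary tissue culture plastic. The 4 suspended cultures grew on plastic coated with poly-HEMA, a polymer film that cells cannot stick to. Both groups had RPMI medium with 10% serum and insulin. Suspended cultures lasted 24 h, whereas for attached cultures the labels give 24 h in 2 fields and 48 h in another, so with the longer time the effects of culture time and of attachment cannot be told apart. All 8 samples come from 1 cell line, and the series design calls each group a biological quadruplicate, so the p-values speak to the spread between cultures of this line. In bulk RNA, fewer cells with a transcript and less transcript per cell cannot be told apart.

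NRF2 is made continuously and, in unstressed cells, is handed by the adaptor KEAP1 to a ubiquitin ligase and degraded. Oxidants and electrophiles modify cysteines of KEAP1, NRF2 then accumulates, and with small MAF proteins it binds antioxidant response elements in front of genes for glutathione synthesis, thioredoxin reductase, ferritin and haem oxygenase. Much of this control acts on protein, which an RNA array does not measure. Glutathione is built by a ligase with a catalytic subunit, GCLC, and a modifier subunit, GCLM, and is used by peroxidases and transferases. Thioredoxin, kept reduced by thioredoxin reductase, supplies electrons to the peroxiredoxins. Detachment of epithelial cells from matrix is known as a source of oxidative stress.

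The letters TGACNNNGC, the core of the antioxidant response element, were looked up on both strands in RefSeq promoter windows of assembly GRCh38.p14, each running from 250 bases before a gene's start to 50 after it. Windows were found for 35 of the 45 measured genes, 52 windows in all. They held the letters in 8 windows (15.4%), against 13.3% of all 35116 windows in the table, so within these windows the listed genes stood close to the rest. Bases further upstream were not searched, nor were measured genes without a window, HMOX1 and GSR among them. Of the genes that rose in suspension (by the test described further on), 2 of 10 with a window had a match, TXNRD1 and EPHX1. Among those that fell the match was in 1 of 5, GCLM, and among those not past the test in 4 of 20, which were GSTO1, GSTP1, KEAP1 and MGST1. Counted by gene, 16.1% of all 27305 genes in the table had a match. The AP-1 letters TGAGTCA, which overlap the first motif where the bases read TGACTCAGC, were in 2 of the 52 windows (3.8%), those of OSGIN1 and GSTP1, against 4.9% of all windows. The 60-base stretches below are shown because GCLM and TXNRD1 both carry the letters and changed in opposite directions, EPHX1 rose, and KEAP1, the NRF2 adaptor, did not pass the test. Capitals mark the motif on either strand, and each stretch ends before the gene's start in its window. A match describes the letters only.
GCLM, chr1:93909431-93909490, minus strand: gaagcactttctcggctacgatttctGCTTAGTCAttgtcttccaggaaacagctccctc
TXNRD1, chr12:104215655-104215714, plus strand: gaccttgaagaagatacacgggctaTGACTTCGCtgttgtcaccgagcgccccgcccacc
TXNRD1, downstream start, chr12:104286905-104286964, plus strand: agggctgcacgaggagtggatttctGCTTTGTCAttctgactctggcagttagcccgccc
EPHX1, chr1:225825251-225825310, plus strand: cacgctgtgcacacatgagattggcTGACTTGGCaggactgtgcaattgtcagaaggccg
KEAP1, chr19:10502791-10502850, minus strand: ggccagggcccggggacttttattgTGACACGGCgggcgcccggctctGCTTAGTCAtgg

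The arrays gave log2 signals with medians between 6.02 and 6.07, and pairs of arrays correlated at 0.987 to 0.996. An array carries no count of reads, so precision rests on the 4 arrays in each group. The 5 mesenchymal markers were bright, with means of 8.70 (ZEB1) to 11.69 (VIM), while ESR1 (5.08), PGR (4.25) and the leukocyte marker PTPRC (3.94) lay below the 25th percentile of gene means, 5.28. Of 5 measured epithelial markers only CDH1 (4.22) did so, with CLDN7 at 5.36, EPCAM at 5.41, KRT8 at 6.39 and KRT18 at 8.14. The average signal of 4 leukocyte markers was 5.60 to 5.67 in attached and 5.54 to 5.67 in suspended arrays, and that of 3 endothelial markers 4.98 to 5.08 and 5.0 to 5.15. Of the mesenchymal markers, AXL fell by 1.04 and CDH2 by 0.38 in suspension and ZEB1 rose by 0.27, and among the leukocyte markers CD68, bright in this line at 8.23, fell by 0.39 and CD14 rose by 0.22 (adjusted p = 0.0467, limma), a call that held in 1 of 8 refits with an array left out. The part of these shifts in the results was not tested. ERBB2, at 7.5, was not low. No background measure was used, so a low signal carries no statement of absence and folds are ratios of signals.

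In suspension, a minority of the redox and iron genes changed, in small steps and in both directions, and 27 of the 45 did not pass the test. With limma and Benjamini-Hochberg adjusted p under 0.05 over all genes, 18 of the 45 (40.0%) passed, 11 higher and 7 lower. Of all genes tested, 20.6% passed (10.4% higher and 10.2% lower). Since the choice was made with earlier results known, the higher share is no independent evidence of an excess. The listed genes were brighter than most, with a median mean signal of 8.28 against 6.40, and bright genes passed more often: when only genes above the median signal were tested, 21 of 36 listed genes (58.3%) and 42% of all genes passed. Their largest change was a fall of 0.71 on the log2 scale (GPX8), the only one beyond 0.5, and the median size among the 18 was 0.26, against 0.28 for all genes that passed. The median log2 difference of the 45, suspended minus attached, was 0.055, and that of all genes 0.024. The balance of directions moved with scaling. With each array centred on the median of the tested genes, 10 listed genes rose and 10 fell, and over all genes the share of rises went from 50.4% to 35.2%.

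**Figure D1:**
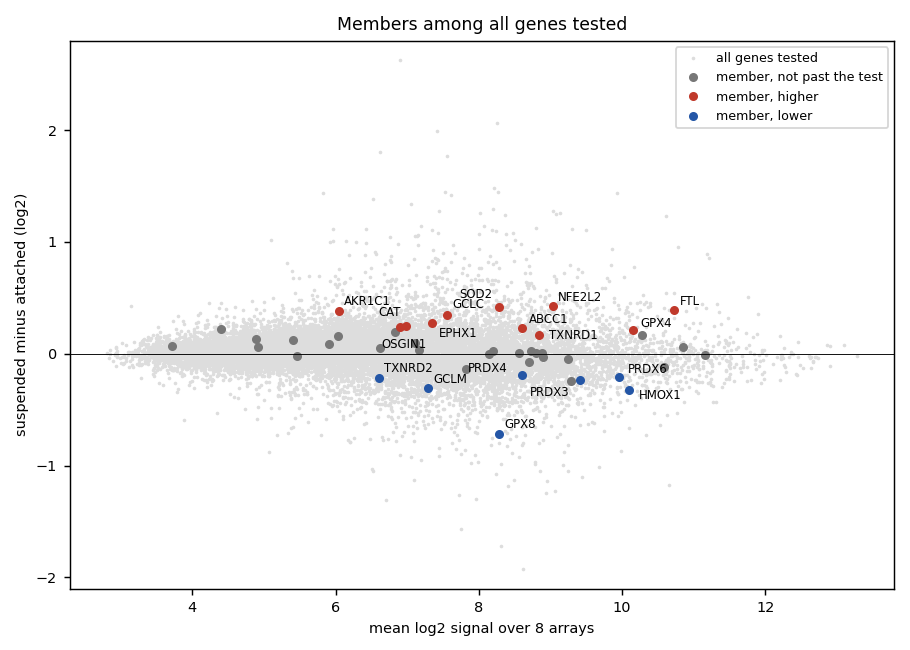
Log2 difference, suspended minus attached (vertical axis), against the mean log2 signal over 8 arrays (horizontal axis) for all 18417 genes tested (grey dots) and the 45 listed genes (larger points, coloured by direction where they passed the test). The listed genes lie in the brighter part of the range, and GPX8 is the one beyond 0.5 in size.

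The values of the 4 suspended and the 4 attached arrays did not overlap for 20 of the 45 genes, against 24.8% of all genes. These were the 18 that passed and 2 that did not, GSR and SRXN1. The spread between cultures of a group was small, with a median SD of 0.053 in attached and 0.074 in suspended arrays. The SD was larger in suspension for 26 of the 45 (57.8%), against 60.2% of all genes.

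**Figure D2:**
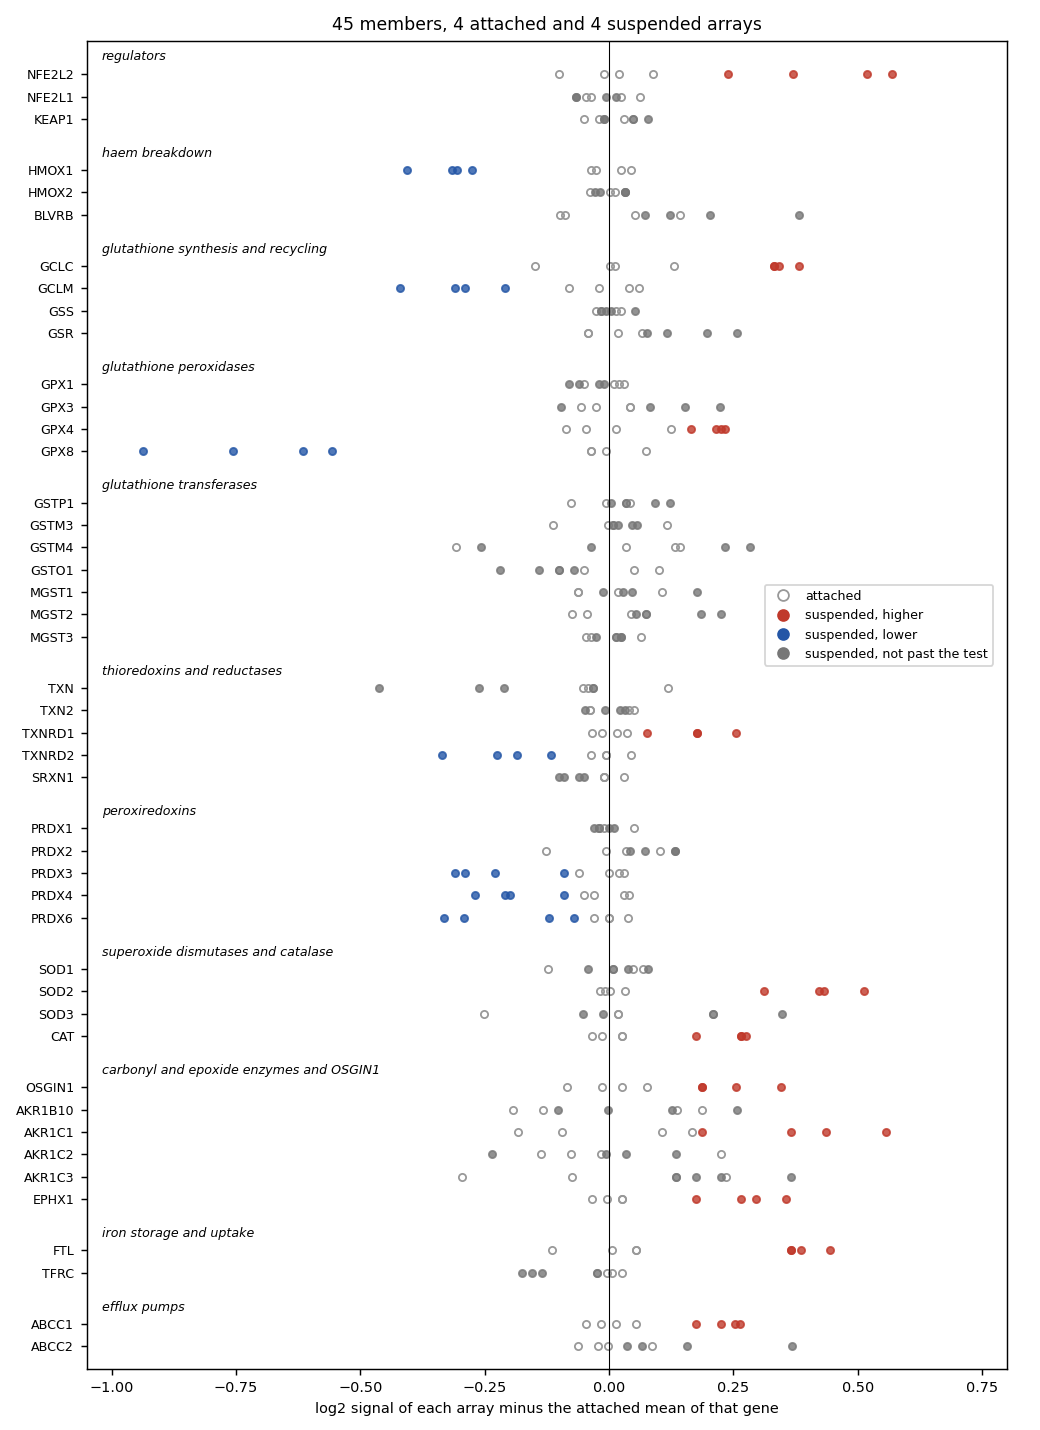
Log2 signal of each array minus the attached mean of the same gene (horizontal axis), for 45 genes grouped by role (vertical axis). Open circles are the 4 attached arrays and filled circles the 4 suspended ones, red where the gene rose, blue where it fell and grey where it did not pass the test. GPX8 lies furthest to the left and NFE2L2 furthest to the right.

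Of the 3 regulators, NFE2L2, which encodes NRF2, rose. Its signal in attached arrays 1 to 4 was 8.91, 8.81, 8.84 and 8.72, and in suspended arrays 1 to 4 it was 9.19, 9.39, 9.34 and 9.06. All 4 suspended values lay above all 4 attached ones, with suspended arrays 2 and 3 highest. The difference was 0.42 (SE 0.074, adjusted p = 0.00167, limma), or 1.34-fold. KEAP1 ranged from 8.13 to 8.23 attached and from 8.17 to 8.26 suspended, a difference of 0.03 with a 95% interval of −0.07 to 0.13. NFE2L1, the related factor NRF1 that governs proteasome genes, went from 8.91 ± 0.05 to 8.88 ± 0.04 (mean ± SD, n = 4 per group), with an interval of −0.14 to 0.07. Neither passed the test.

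Haem breakdown split between its members. HMOX1, the inducible haem oxygenase and a classic NRF2 target, fell: attached arrays 1 to 4 read 10.24, 10.23, 10.31 and 10.29 and suspended arrays 9.96, 9.95, 9.86 and 9.99. The groups were about 0.3 apart with tight values inside each, and the difference was −0.33 (SE 0.047, adjusted p = 4.58e-04), a 1.25-fold lower signal. HMOX2, the constitutive haem oxygenase, read 8.84 to 8.91 attached and 8.85 to 8.91 suspended (interval of the difference −0.09 to 0.10). BLVRB, a biliverdin reductase, was 6.64 to 6.88 attached and 6.81 to 7.12 suspended, with overlapping groups, and did not pass (0.20, adjusted p = 0.0983).

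The subunits of the ligase that makes the first bond of glutathione went opposite ways. GCLC, the catalytic subunit, read 7.24, 7.40, 7.52 and 7.39 in the attached and 7.72, 7.77, 7.73 and 7.72 in the suspended arrays. The suspended values were nearly equal and all above the attached ones, for a rise of 0.34 (SE 0.059, adjusted p = 0.00151), or 1.27-fold. GCLM, the modifier subunit that raises the activity of GCLC, read 7.49, 7.51, 7.43 and 7.37 attached and 7.03, 7.16, 7.14 and 7.24 suspended. All suspended values were lower, for a fall of 0.31 (SE 0.056, adjusted p = 0.00232). GSS, the synthetase of the second step, stayed between 8.77 and 8.82 attached and between 8.78 and 8.85 suspended, with an interval of −0.09 to 0.10. GSR, which returns oxidised glutathione to the reduced form, read 10.22, 10.27, 10.16 and 10.16 attached and 10.40, 10.32, 10.46 and 10.28 suspended. Its groups did not overlap, but the difference of 0.165 did not pass (adjusted p = 0.0505). GSR did pass without attached replicate 2 (0.188, adjusted p = 0.0481), without suspended replicate 4 (0.194, adjusted p = 0.0329) and after a further quantile normalization (0.216, adjusted p = 0.0140).

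Among the glutathione peroxidases, GPX8 showed the largest change of the whole set. This peroxidase of the endoplasmic reticulum read 8.60, 8.63, 8.71 and 8.60 attached and 7.88, 8.02, 8.08 and 7.70 suspended. The lowest attached value was over 0.5 above the highest suspended value, and the suspended arrays spread more (SD 0.17 against 0.05). The difference was −0.71 (SE 0.077, adjusted p = 6.14e-05), a 1.64-fold lower signal. GPX4, which reduces lipid peroxides in membranes and guards against ferroptosis, rose by 0.21 (SE 0.053, adjusted p = 0.0162), from 9.97, 10.18, 10.07 and 10.01 to 10.29, 10.27, 10.22 and 10.28. Without attached replicate 4 the call was lost (0.196, adjusted p = 0.0513). GPX1, the main cytosolic peroxidase, was 9.26 attached and 9.22 suspended by its brighter probe set and 8.62 and 8.77 by the other, and neither passed (differences −0.04 and 0.15, adjusted p = 0.539 and 0.0908 over all probe sets). GPX3, a secreted peroxidase, spanned 5.81 to 5.91 attached and 5.77 to 6.09 suspended and did not pass.

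None of the 7 glutathione transferases passed the test, against 20.6% of all genes passing. At unadjusted p under 0.05 the count was 2, against 5980 of all 18417 genes. Glutathione transferases attach glutathione to electrophiles. GSTP1, among the brightest of the set, read 10.75 to 10.87 attached and 10.83 to 10.95 suspended. GSTO1 was 7.79 to 7.99 attached and 7.67 to 7.82 suspended (−0.13, adjusted p = 0.136) and passed only with arrays centred on the median of the tested genes (−0.179, adjusted p = 0.0459). GSTM4 had the widest spread between cultures, from 6.29 to 6.74 attached and from 6.34 to 6.88 suspended. Its difference of 0.055 has an interval of −0.22 to 0.33, so changes of the size seen in most other genes were not detectable. GSTM3 (0.03) and MGST3 (0.01) had intervals of −0.09 to 0.15 and −0.09 to 0.11. The microsomal MGST1 (0.06) and MGST2 (0.135) had mean signals below 5.28. GSTM genes are close copies of each other, so their values are uncertain.

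**Figure D3:**
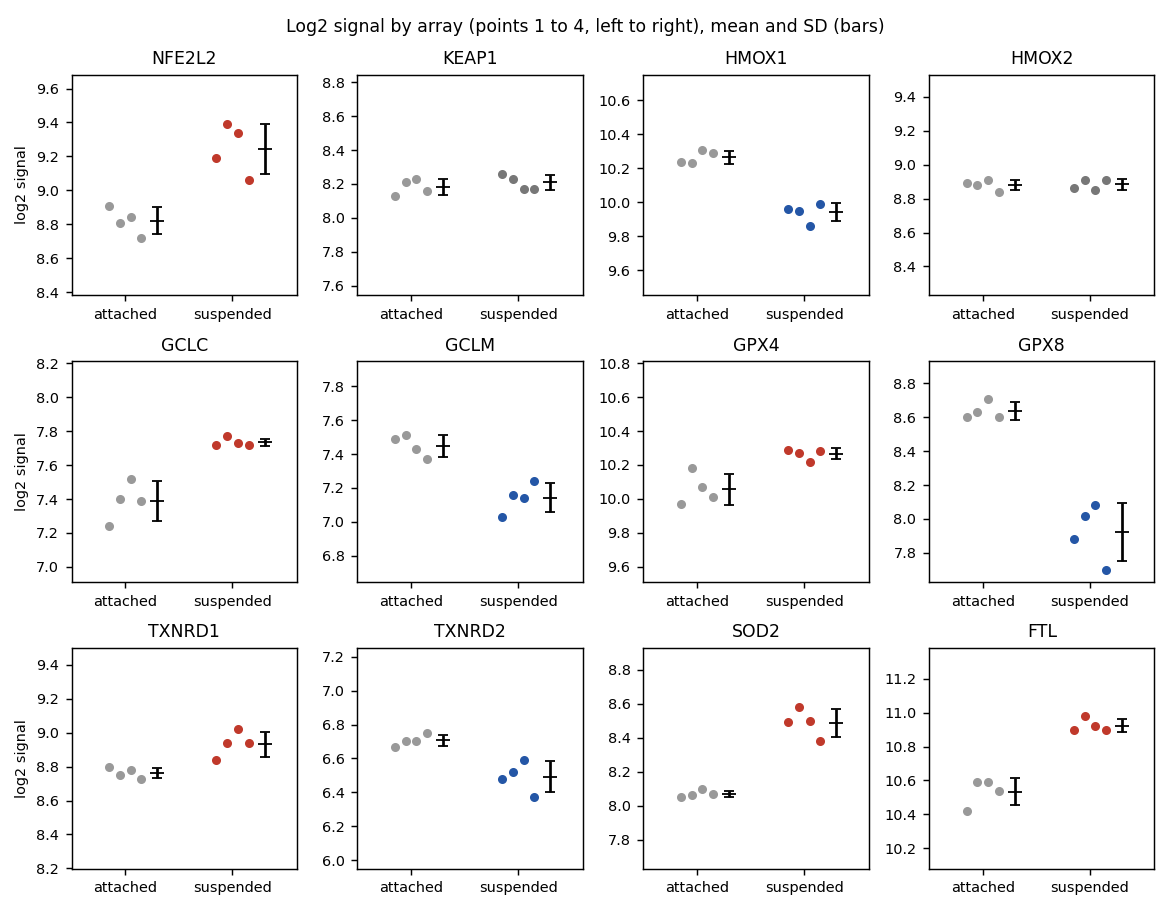
Log2 signal (vertical axis, 1.3 units tall in each panel) of 12 genes in attached and suspended cultures. Points are arrays 1 to 4 from left to right, and the bar beside them is the mean with SD. NFE2L2, GCLC, GPX4, TXNRD1, SOD2 and FTL rose (red), HMOX1, GCLM, GPX8 and TXNRD2 fell (blue), and KEAP1 and HMOX2 did not pass the test.

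In the thioredoxin system the reductases of the cytosol and of mitochondria moved apart. TXNRD1, the cytosolic thioredoxin reductase, read 8.80, 8.75, 8.78 and 8.73 attached and 8.84, 8.94, 9.02 and 8.94 suspended. The groups did not overlap but suspended array 1 came within 0.05 of attached array 1. The rise was 0.17 (SE 0.050, adjusted p = 0.0333), and it passed in 1 of 8 refits with an array left out, that without suspended replicate 1. In the other refits adjusted p was 0.0524 to 0.0920, with differences of 0.14 to 0.18, and with arrays centred on their medians it was 0.0772. TXNRD2, the mitochondrial reductase, fell by 0.21 (SE 0.053, adjusted p = 0.0146), from 6.67, 6.70, 6.70 and 6.75 to 6.48, 6.52, 6.59 and 6.37.

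TXN, thioredoxin itself, read 9.53, 9.36, 9.38 and 9.37 attached and 9.15, 9.20, 9.38 and 8.95 suspended. Suspended array 3 sat at the level of the attached arrays, and the difference of −0.24 (SE 0.081) did not pass (adjusted p = 0.0577). It passed without suspended replicate 3 (−0.312, adjusted p = 0.0117) and with arrays centred on their medians (−0.265, adjusted p = 0.0313). TXN2, the mitochondrial thioredoxin, ranged from 8.10 to 8.19 attached and from 8.09 to 8.17 suspended (interval −0.10 to 0.10). SRXN1, the sulfiredoxin that repairs overoxidised peroxiredoxins, read 8.73 to 8.77 attached and 8.64 to 8.69 suspended. Its groups did not overlap, yet the difference was only −0.07 and did not pass (adjusted p = 0.253).

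Of 5 measured peroxiredoxins, 3 fell and 0 rose at the adjusted threshold, against 10.2% lower over all genes. In a separate fit of only genes above the median signal, with its own adjustment, 42% were called in either direction. That share is not matched to the peroxiredoxin count. At unadjusted p under 0.05 also 3 peroxiredoxins were past, against 5980 of all 18417 genes. PRDX3, which clears peroxide in mitochondria, read 9.47, 9.56, 9.55 and 9.53 attached and 9.22, 9.30, 9.24 and 9.44 suspended (−0.23, SE 0.056, adjusted p = 0.0125). It did not pass after a further quantile normalization (−0.172, adjusted p = 0.0635). PRDX4, the peroxiredoxin of the endoplasmic reticulum, went from 8.73, 8.65, 8.74 and 8.67 to 8.43, 8.61, 8.50 and 8.49 (−0.19, SE 0.052, adjusted p = 0.0222). The call did not survive removal of attached array 1 or 3, or of suspended array 1 or 4 (−0.166 to −0.185, adjusted p = 0.0507 to 0.0694).

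PRDX6, a cytosolic peroxiredoxin that uses glutathione, read 10.03, 10.06, 10.10 and 10.06 attached and 9.73, 9.94, 9.99 and 9.77 suspended. Suspended arrays 2 and 3 lay close under the attached ones. The difference was −0.205 (SE 0.062, adjusted p = 0.0377), and it passed in 2 of 8 refits with an array left out, those without suspended replicate 2 or 3. In the rest adjusted p was 0.0625 to 0.0984, and after a further quantile normalization it was 0.0706. PRDX1, among the brightest genes of the set, spanned 11.14 to 11.21 attached and 11.13 to 11.17 suspended (interval −0.10 to 0.08). PRDX2 was 6.93 to 7.16 attached and 7.10 to 7.19 suspended and did not pass (0.10, adjusted p = 0.260).

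Superoxide dismutase of the mitochondria and catalase rose. SOD2, which turns superoxide into peroxide in the mitochondrial matrix and is also a known NF-kB target, read 8.05, 8.06, 8.10 and 8.07 attached and 8.49, 8.58, 8.50 and 8.38 suspended. The groups were well apart, and the difference was 0.42 (SE 0.051, adjusted p = 1.46e-04), or 1.34-fold. CAT, the peroxisomal catalase, went from 6.77, 6.81, 6.75 and 6.81 to 7.06, 7.05, 6.96 and 7.05 (0.24, SE 0.045, adjusted p = 0.00248). SOD1, the cytosolic enzyme, read 8.60 to 8.79 attached and 8.68 to 8.80 suspended, with an interval of −0.10 to 0.14. SOD3, the secreted enzyme, was dim and variable, 5.09 to 5.55 attached and 5.29 to 5.69 suspended, and did not pass.

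Among carbonyl and epoxide enzymes and OSGIN1, 3 of 6 measured genes rose and 0 fell, against 10.4% higher over all genes. The same number had an unadjusted p under 0.05, against 5980 of all 18417 genes. EPHX1, the microsomal epoxide hydrolase, read 7.20, 7.23, 7.17 and 7.23 attached and 7.50, 7.56, 7.38 and 7.47 suspended (0.28, SE 0.050, adjusted p = 0.00209). OSGIN1, a growth inhibitor induced by oxidative stress, rose by 0.24 (SE 0.056, adjusted p = 0.00900), from 6.78 to 6.94 attached to 7.05 to 7.21 suspended.

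AKR1C1, a ketosteroid and carbonyl reductase, read 5.96, 6.02, 5.67 and 5.76 attached and 6.29, 6.22, 6.04 and 6.41 suspended by its brighter probe set. Suspended array 3 was only just above attached array 2, and the difference was 0.38 (SE 0.093, adjusted p = 0.0122). The other probe set read 5.37 to 5.48 attached and 5.23 to 5.70 suspended, a difference of 0.05 (adjusted p = 0.715 over all probe sets). With the mean of both, AKR1C1 did not pass (0.218, adjusted p = 0.0672). AKR1C2 (−0.02) did not pass, nor did AKR1C3 (0.22, adjusted p = 0.155), which was below 5.28 in mean signal, as was AKR1B10 (0.07). AKR1C genes are close copies of each other, so a value for any of them is uncertain.

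In iron handling, the ferritin light chain rose. FTL read 10.42, 10.59, 10.59 and 10.54 attached and 10.90, 10.98, 10.92 and 10.90 suspended. The suspended arrays were close together and all above the attached ones, with a difference of 0.39 (SE 0.051, adjusted p = 2.60e-04), or 1.31-fold. FTL has processed pseudogenes elsewhere in the genome, so some of its signal may be shared. TFRC, the transferrin receptor that brings iron into the cell, read 10.65, 10.66, 10.63 and 10.68 attached and 10.52, 10.48, 10.50 and 10.63 suspended. The highest suspended array reached the lowest attached one, and the difference of −0.12 did not pass (adjusted p = 0.101). TFRC passed without suspended replicate 4 (−0.156, adjusted p = 0.0359) and with arrays centred on the median of the tested genes (−0.168, adjusted p = 0.0253). Ferritin and the transferrin receptor are known to be regulated in opposite directions by iron, largely after transcription.

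Of the efflux pumps, ABCC1, which exports glutathione conjugates, rose from 8.54, 8.47, 8.50 and 8.44 to 8.66, 8.71, 8.74 and 8.75 (0.23, SE 0.046, adjusted p = 0.00401). The related pump ABCC2 read 5.89 to 6.04 attached and 5.99 to 6.32 suspended, with suspended array 2 highest, and did not pass (0.16, adjusted p = 0.156).

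Functional partners were compared inside each array, where a shift of the whole array cancels. The log2 signal of one gene minus that of its partner was taken in every array, and the 4 suspended values were set against the 4 attached ones with a two-sided exact permutation test. The smallest p it can give is 0.0286. Of 12 pairs listed, the 2 with FTH1 could not be computed, and 7 of the other 10 reached that p, which is 0.0408 after Benjamini-Hochberg adjustment over the 10 pairs. The pairs were drawn up with the directions of several of these genes known, so these values are no independent support for them.

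The widest shift was that of GCLC minus GCLM, which read −0.25, −0.11, 0.09 and 0.03 attached and 0.69, 0.61, 0.59 and 0.48 suspended, a change of 0.65. All suspended arrays were higher. FTL minus TFRC read −0.23, −0.07, −0.04 and −0.14 attached and 0.39, 0.49, 0.42 and 0.26 suspended, a change of 0.51. The difference was larger in every suspended array than in any attached one, although TFRC alone did not pass its test. NFE2L2 moved by 0.46 against NFE2L1 and by 0.40 against KEAP1. TXNRD1 minus TXN changed by 0.41, SOD2 minus SOD1 by 0.40 and HMOX2 minus HMOX1 by 0.33, each with groups that did not overlap. TXNRD2 minus TXN2 changed by −0.21 and SRXN1 minus PRDX1 by −0.06 (exact p = 0.0571 and adjusted p = 0.0635 for both), and GCLC minus GSR by 0.18 (exact p = 0.114, adjusted p = 0.114), with overlapping groups. With limma on the same values, TXNRD2 minus TXN2 (adjusted p = 0.0100) and GCLC minus GSR (adjusted p = 0.0364) passed as well. By the exact test, TXNRD2 minus TXN2 passed without suspended replicate 3 (−0.259, adjusted p = 0.0357), GCLC minus GSR without attached replicate 3 (0.238, adjusted p = 0.0408) and SRXN1 minus PRDX1 after a further quantile normalization (−0.084, adjusted p = 0.0357). NFE2L2 minus NFE2L1 did not pass the exact test without any 1 of the attached replicates 1 to 4 (0.438 to 0.500, adjusted p = 0.0635 to 0.0816). The groups of this pair did not overlap, so they stayed apart in these refits, with changes near the 0.46 of all arrays. With groups of unequal size, another split of the arrays can give a difference as large as the observed one. In this pair suspended array 4, at 0.14, lay nearer to attached array 1 (0.05) than to the other suspended arrays (0.35, 0.49 and 0.50). Since 6 to 8 pairs still passed with an array left out, the call for this pair depended on the arrays kept. With limma on all arrays, NFE2L2 minus NFE2L1 had adjusted p = 1.94e-04.

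**Figure D4:**
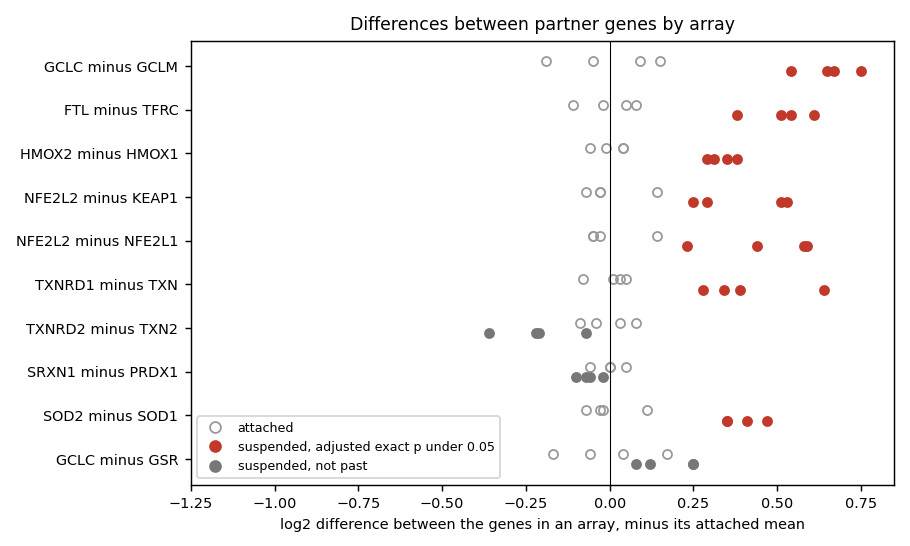
Log2 signal of one gene minus that of its partner in each array, relative to the attached mean of that pair (horizontal axis), for 10 pairs (vertical axis). Open circles are attached and filled circles suspended arrays, red where the exact permutation test passed after adjustment over the 10 pairs and grey where it did not. In 7 pairs the groups are separate, furthest for GCLC minus GCLM.

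Other genes of these pathways were counted in 8 lists that hold none of the 48. Each count is to be read against the 20.6% of all genes that passed. When only genes above the median signal were tested, 42% passed. That share came from a separate fit with its own adjustment, so it is not matched to the counts of the lists. The lists too were chosen with earlier results known, so a higher share in them is no independent evidence. Of 11 measured partners and controllers of NRF2, 4 rose and 2 fell (54.5% called, against 20.6%). DPP3 (0.26, adjusted p = 0.00126) and the autophagy receptor SQSTM1 (0.26, adjusted p = 0.00163), both of which bind KEAP1, rose. BACH1, another gene of this list, rose by a like amount (0.26, adjusted p = 0.0123, limma). NFE2L3, a factor of the NRF2 family, fell by 0.70 on the log2 scale (adjusted p = 7.77e-04). Attached arrays read 6.95 to 7.54 for NFE2L3 and suspended arrays 6.44 to 6.71.

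Of 17 further NRF2 target genes, 4 rose and 1 fell (29.4% called, against 20.6% of all genes). NQO1, a quinone reductase and standard NRF2 readout, rose by 0.90 (SE 0.046, adjusted p = 1.95e-07), from 10.69 to 10.79 attached to 11.59 to 11.69 suspended. NQO1 thus exceeded every one of the 45 genes in size of change. It is also a target of the aryl hydrocarbon receptor. TKT, a transketolase of the pentose phosphate pathway, rose by 0.53 (adjusted p = 2.50e-05), and the carbonyl reductase CBR3 by 0.23 (adjusted p = 0.00721). TRIM16 rose by 0.29 (adjusted p = 0.0219), with overlapping groups, and it did not pass with attached array 1, 3 or 4, or suspended array 2 or 4, removed (0.236 to 0.290, adjusted p = 0.0510 to 0.0696). The efflux pump ABCC4 fell by 0.26 (adjusted p = 0.00608), against the direction of ABCC1. SLC7A11, which imports cystine for glutathione synthesis, was 8.03 to 8.14 attached and 8.15 to 8.29 suspended and did not pass (0.10, adjusted p = 0.211).

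Further glutathione genes passed in 8 of 25 cases, 3 higher and 5 lower (32.0%, against 20.6% of all genes). The glyoxalase GLO1, which uses glutathione to clear methylglyoxal, fell by 0.30 (adjusted p = 5.75e-04), and CHAC2, which degrades glutathione, by 0.35 (adjusted p = 0.00101). GSTT1, a transferase, rose by 0.24 (adjusted p = 0.00204). Of 16 further thioredoxin-fold and repair genes, 1 rose and 4 fell (31.2% called, against 20.6% of all genes). TXNIP, the inhibitor of thioredoxin, fell by 0.35 (adjusted p = 0.00517), TXNL4A, a thioredoxin-like splicing protein, by 0.28 (adjusted p = 0.00143), TXNDC17 by 0.22 (adjusted p = 0.0257) and the sestrin SESN2 by 0.27 (adjusted p = 0.0308). MSRA, which repairs oxidised methionine, rose by 0.37 (adjusted p = 9.95e-04). TXNDC17 dropped out on removal of attached array 1 or 3, or of suspended array 1 or 3 (−0.217 to −0.167, adjusted p = 0.0549 to 0.0736), and SESN2 on removal of attached array 2 or 3, or of suspended array 1 (−0.237 to −0.215, adjusted p = 0.0803 to 0.0921). With attached array 3 or suspended array 1 removed, the list had 3 calls.

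In iron transport and control, 4 of 25 rose and 2 fell, and these 24.0% were near the 20.6% of all genes. The metal importer SLC39A8 rose by 0.56 (adjusted p = 1.06e-04), the ferric reductase CYBRD1 by 0.48 (adjusted p = 3.82e-05) and the mitochondrial iron carrier SLC25A37 by 0.32 (adjusted p = 4.27e-04). The iron exporter SLC40A1 was dim, 4.18 to 4.32 attached and 4.17 to 4.32 suspended, and did not pass. Of 12 genes of haem synthesis and transport, ALAD rose (0.29, adjusted p = 0.00141) and CPOX fell (−0.16, adjusted p = 0.0475). These 2 are 16.7% of the list, below the 20.6% of all genes. The CPOX call held in 1 of 8 refits with an array left out, that without attached replicate 4 (adjusted p up to 0.122 in the others). The list had 1 call with attached array 1, 2 or 3, or suspended array 2, 3 or 4, removed. BLVRA, the main biliverdin reductase, did not pass (−0.18, adjusted p = 0.0898), but did without attached replicate 4 or suspended replicate 1 (−0.232 and −0.219, adjusted p = 0.0257 and 0.0489).

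Of 13 genes tied to ferroptosis and lipid peroxides, 1 rose and 5 fell (46.2% called, against 20.6% of all genes). In the separate fit of only genes above the median signal, 42% passed, and the share of this list there is not given. SAT1, which acetylates polyamines, rose by 0.685 (adjusted p = 7.25e-06). ACSL4, which activates polyunsaturated fatty acids that go into phospholipids, fell by 0.29 (adjusted p = 0.00154). DHODH, a mitochondrial enzyme of pyrimidine synthesis, fell by 0.325 (adjusted p = 0.00351). For 8 NADPH oxidase genes limma called 0, against 20.6% of all genes. At unadjusted p under 0.05 the count was also 0, against 5980 of all 18417 genes. Mean signals were below 5.28 for 7 of the 8. NCF4 (0.11), CYBB (0.10) and NOX3 (0.10) had the smallest adjusted p, 0.188 to 0.454.

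**Figure D5:**
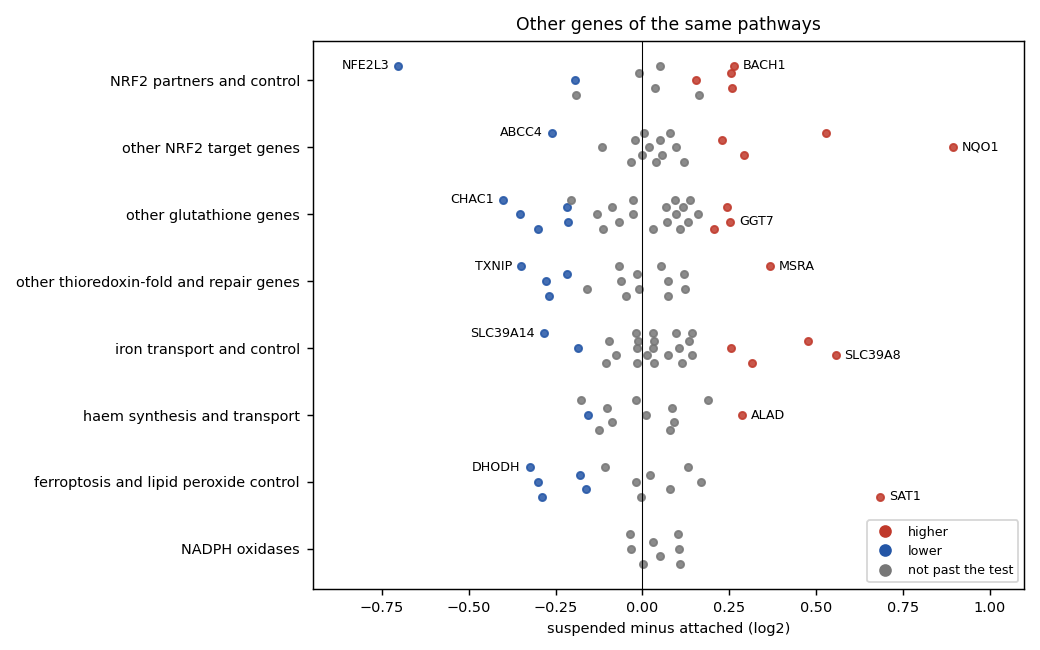
Log2 difference, suspended minus attached (horizontal axis), of each measured gene in 8 lists of further pathway genes (vertical axis; points are offset to avoid overlap). Red points rose, blue points fell and grey points did not pass the test, and the outermost gene on each side is named where it passed. NQO1 (0.90) and NFE2L3 (−0.70) are the extremes.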

How the data were processed

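Total RNA from 8 BT549 cultures was biotin-labelled and hybridised to gene-level arrays. The authors deposited 1 table of log2 signals for 33297 probe sets. The log2 scale was inferred from the values, which reach 13.7. The submitters' processing notes name Partek, with version, background correction and normalization not given in the sources used here. No further normalization was applied. Gene symbols came from the annotation of the array platform, in which 19460 probe sets had 1 symbol, 1754 several and 12083 none. For a gene with several probe sets, that with the highest mean stood for it, giving 18417 genes. The group difference of each gene was fitted in limma 3.58.1 (R 4.3.3) by lmFit and moderated by eBayes, without covariates, with two-sided p-values and Benjamini-Hochberg adjustment over all genes and a threshold of 0.05. Pairs of genes were compared by exact permutation of the 8 arrays. Python 3.11.15, pandas 2.3.3, scipy 1.17.1 and matplotlib 3.10.9 were used for tables and plots. In simulated data with 18417 genes and 4 arrays a group, the pipeline recovered 58 of 100 genes changed 1.25-fold and all 100 changed 2-fold, with 10 false calls. The changed genes were drawn at any signal, and far more genes (3787) were called in the real data. The recovery is thus no estimate of power for the listed genes.

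The genes, lists, pairs and markers were chosen with earlier results of these data known. All measured listed genes are named. From each further list, the 3 genes with the smallest adjusted p are named, and every called gene where 5 or fewer were called. NQO1, SLC7A11, TXNIP, SLC40A1 and SQSTM1 are named besides, and BACH1 was added afterwards. Replicate numbers do not pair the cultures in the labels. Alternatives were a further quantile normalization, median centring, filters on low signal, the mean of probe sets, the replicate number as a block, array weights, another variance prior and leaving out each array.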

Additional observations from a re-analysis of the deposited data

Results flagged for a closer look

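Each gene's 4 values in a group were checked for 1 array standing apart from the other 3 by Dixon's ratio. Among 90 such groups, 3 passed the 95% critical value, where chance flags about 1 in 20, or 4.5 here. TXN in attached replicate 1 was 9.53, against 9.36 to 9.38 in the other attached arrays. PRDX1 in the same array was 11.21, against 11.14 to 11.15. CAT in suspended replicate 3 was 6.96, against 7.05 to 7.06 in the other suspended arrays, and still above every attached array.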

How the results depend on the processing

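Of the 18 listed genes that passed, 12 passed in every alternative run. Leaving out 1 array at a time gave 15 to 18 listed genes past the threshold, and the other settings 16 to 21. No listed gene that passed changed direction. The labels state no pairing by replicate number. Same-numbered cultures had deviations correlated at −0.210 to 0.036, and differently numbered ones at −0.208 to 0.267. The deviations were taken from the mean of each group of 4, so these correlations cannot exclude a pairing. With replicate number as a block, 16 listed genes passed, TXNRD1 and PRDX4 being lost, and 3022 genes overall. The haem list had 1 call in place of 2 with the replicate block, with array weights and with the trended prior, and 1 to 3 with an array left out. The thioredoxin-fold list had 3 to 5 with an array left out. With the replicate block 0 pairs passed, since 4 sign changes cannot give an exact p under 0.125, so that test says nothing about stability, and 6 to 8 pairs passed with an array left out. Genes that did not pass crossed zero by small amounts. Under a further quantile normalization NFE2L1 was 0.011, GPX1 0.015, TXN2 0.024 and PRDX1 0.050, and by the mean of probe sets GPX1 was 0.053. With arrays centred on their medians HMOX2 was −0.019, GSS −0.018, MGST3 −0.014 and SOD1 −0.001. Centred on the median of tested genes, an alternative chosen after seeing the data, KEAP1 was −0.018, HMOX2 −0.042, GSS −0.041, GSTM3 −0.014, MGST3 −0.037 and SOD1 −0.025. With an array left out the ranges were −0.009 to 0.015 (HMOX2), −0.010 to 0.013 (GSS), −0.007 to 0.070 (GSTM3), −0.046 to 0.159 (GSTM4), −0.006 to 0.030 (MGST3), −0.018 to 0.014 (TXN2), −0.017 to 0.007 (PRDX1), −0.020 to 0.043 (SOD1), −0.070 to 0.056 (AKR1C2) and −0.042 to 0.016 (SLC40A1). The causes were not tested. Lacking a background measure, changes at low signal are least certain.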
